A study of Mus musculus with 5 samples.

Results

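The 10 genes described here encode the phosphatase calcineurin, the NFAT factors and the RCAN regulators: Ppp3r1, Ppp3ca, Ppp3cb, Ppp3cc, Nfatc1, Nfatc2, Nfatc3, Nfat5, Rcan1 and Rcan3. They were taken by symbol, and each was read by 1 probe set that carried no other gene's symbol, so all 10 were measured among 19937 genes. Expression was profiled in colonic CD45+CD3+CD4+ T cells that stained low for CD44, an activation marker. The cells were taken by sorting from the mouse lamina propria, the layer of connective tissue under the gut epithelium. The 3 conditional samples came from CD4cre/Cnb1flox mice, in which a CD4-driven Cre recombinase meets a floxed Cnb1 gene. The 2 control samples came from CD4neg/Cnb1flox mice, which carry the same floxed gene without Cre and are called WT in the sample titles. Cnb1 is another name of Ppp3r1, so both groups share the floxed allele and differ in Cre. According to the series, 3 experiments were run with 3 to 5 mice in a group. The labels do not say how many mice gave the RNA of an array, nor their age. What the p-values measure is thus the spread between arrays, part of which may be technical.

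Calcineurin is built from a catalytic A subunit and the calcium-binding regulatory B subunit, which the catalytic subunit needs for activity. When the T cell receptor raises cytosolic calcium, calcineurin removes phosphates from NFATc1, NFATc2 and NFATc3, which then enter the nucleus and act with partners such as AP-1 on cytokine and receptor genes. NFAT5 shares the DNA-binding fold but responds to osmotic stress and is not a calcineurin substrate, and RCAN proteins bind calcineurin and restrain it. Rcan1 is itself an NFAT target in mammalian cells, through the downstream of its alternative promoters, so its RNA serves as a readout of calcineurin activity.

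Those Rcan1 promoters are shown because they differ in the NFAT core letters GGAAA, searched on both strands as GGAAA and TTTCC. Each window runs from 250 bases before to 50 bases after a RefSeq start on the minus strand of chromosome 16 (GRCm38.p6), read 5′ to 3′ in the direction of the gene, with the core in capitals. The downstream start lies at chr16:92400029-92400328 and the upstream start, 66091 bases away, at chr16:92466120-92466419.
Rcan1 downstream start: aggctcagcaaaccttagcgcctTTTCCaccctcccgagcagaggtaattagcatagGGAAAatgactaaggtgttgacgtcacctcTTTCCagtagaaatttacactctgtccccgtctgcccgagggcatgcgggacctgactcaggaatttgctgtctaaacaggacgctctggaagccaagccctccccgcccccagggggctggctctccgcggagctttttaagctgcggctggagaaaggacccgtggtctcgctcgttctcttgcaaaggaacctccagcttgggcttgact
Rcan1 upstream start: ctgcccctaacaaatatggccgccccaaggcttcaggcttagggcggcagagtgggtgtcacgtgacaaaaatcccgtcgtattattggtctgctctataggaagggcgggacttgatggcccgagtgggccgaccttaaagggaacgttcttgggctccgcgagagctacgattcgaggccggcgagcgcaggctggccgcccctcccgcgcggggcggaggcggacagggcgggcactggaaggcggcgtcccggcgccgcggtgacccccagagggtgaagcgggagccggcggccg
The downstream window held 3 cores, at -227, -193 and -163 from the start, and 9.42% of the 32851 promoter windows of the same table held at least 3. The upstream window held 0, while 61.3% of all windows held 1 or more. Among other members, the windows of Ppp3cb held 4, Nfatc2 1 and 3, Nfatc3 1 and 0, Nfat5 2, Rcan3 1 and Ppp3r1 0. Neither the count nor a difference between starts was thus particular to Rcan1. These letters are short and common, and a match describes the sequence and is not a mapped binding site. The probe set of Rcan1 is annotated with 2 RefSeq mRNAs, and the positions of its probes were not used here, so its value was not split between the starts.

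The sorted cell type was checked before the genes were compared, because 1 control array stood apart. Of 14 T cell identity genes (Cd3d, Cd3e, Cd4 and others) 12 were measured, and all 12 were lower in control replicate 1 than on every other array, by 1.99 to 3.99 on the log2 scale against control replicate 2. The mean level of the list was 11.07, 11.15 and 11.29 on conditional arrays, 8.55 in control replicate 1 and 11.36 in control replicate 2. Epithelial markers averaged 7.31 to 7.76 on conditional arrays, 9.77 in control replicate 1 and 8.20 in control replicate 2, and 12 of 14 were highest in control replicate 1. Stromal and endothelial markers averaged 8.93 to 9.95 on conditional arrays, 11.17 in control replicate 1 and 9.53 in control replicate 2, with 11 of 12 highest in control replicate 1. Macrophage and dendritic cell markers averaged 7.52 to 8.15 on conditional arrays against 6.95 and 6.80 in control replicates 1 and 2. B and plasma cell markers, of which 8 of 9 were measured, averaged 8.51 to 9.22 on conditional arrays against 9.66 and 9.24 in control replicates 1 and 2. No call against background was available, so a low signal is not an absence. In bulk RNA, fewer cells of a type and less RNA per cell cannot be told apart. Where controls are given as a pair below, control replicate 1 precedes control replicate 2.

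**Figure D1:**
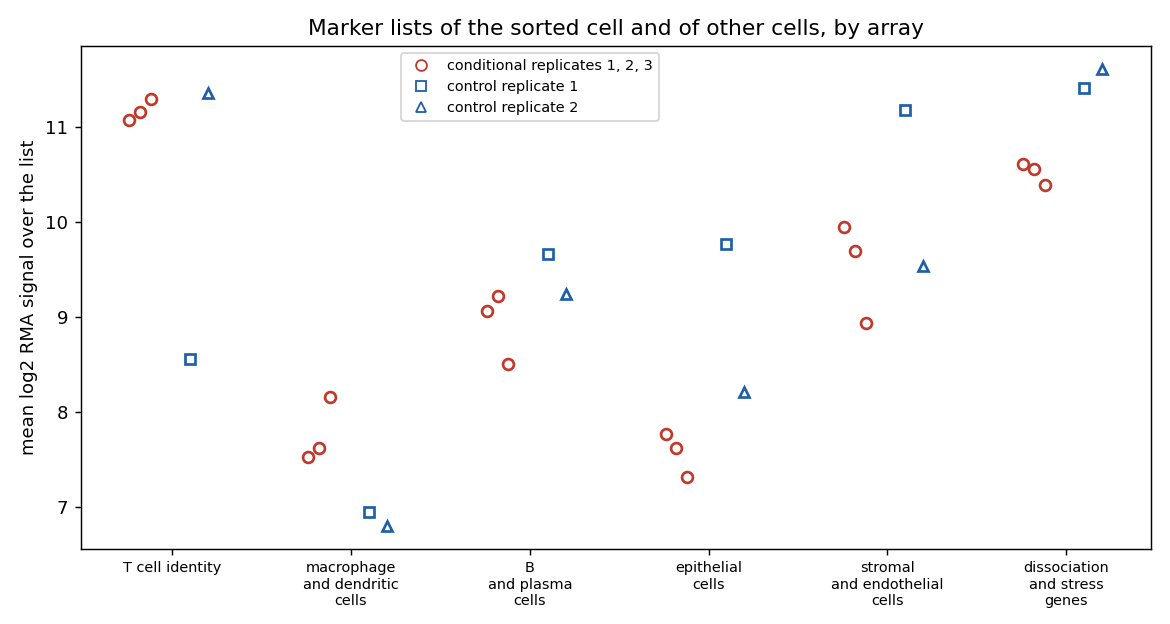
Mean log2 RMA signal (vertical axis) of each marker list on every array, with 3 conditional arrays (circles) left of control replicate 1 (square) and control replicate 2 (triangle). The T cell identity mean lies at 11.07 to 11.36 on 4 arrays and at 8.55 in control replicate 1, where the epithelial and stromal means are highest.

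Across the 10 genes, none passed an adjusted p of 0.05 between conditional and control cells in limma, a linear model with moderated variances, and 0.416% of all genes did. At an unadjusted p of 0.05 the count was 1 of 10, Nfatc3, while 14.5% of all genes reached it. The median difference was -0.03 on the log2 scale over the 10 genes and 0.03 over all genes. In 3 of 10, Ppp3cb, Nfatc2 and Nfatc3, every conditional value lay above both controls, as for 17.4% of all genes, and in 0 of 10 every value lay below both, as for 13.1%. Counted in either direction the background was 30.5%, so the share of the 10 genes is near it. In 6 of 10 the 3 conditional values lay between the controls, which held for 17.9% of all genes. An exact permutation test of 3 against 2 arrays cannot give a one-sided p below 0.1.

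Values are log2 RMA signals, on which a step of 1 is a 2-fold change, and levels of different probe sets are not comparable with each other. Ppp3r1, the regulatory subunit and the targeted gene, read 8.64, 8.83 and 8.77 on the conditional arrays, against 8.99 in control replicate 1 and 8.60 in control replicate 2. All 3 conditional values lay between the controls. The difference was -0.05 ± 0.159 (SE, limma, adjusted p = 0.927), and its 95% confidence interval ran between -0.46 and 0.35. Taken singly, control replicate 1 gave -0.25 and control replicate 2 gave 0.15. The labels do not name the deleted exons, and probes outside them would check nothing about the deletion, so the genotype labels were not checked by this value.

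Among the catalytic subunits, Ppp3ca encodes calcineurin A alpha and Ppp3cb calcineurin A beta, both found in T cells. Ppp3ca read 9.91, 10.03 and 10.09 on conditional arrays, against 10.67 and 9.78 in control replicates 1 and 2. Control replicate 1 was the highest array and control replicate 2 the lowest. The difference was -0.21 ± 0.275 (SE, limma, adjusted p = 0.802), and it was -0.65 and 0.23 against control replicates 1 and 2 alone.

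Ppp3cb read 10.15, 10.33 and 10.29 on conditional arrays, against 10.07 and 10.13 in controls. It was the member whose controls were closest, 0.06 apart, and every conditional array was above both, by a margin that was lost when arrays were centred on their medians. The difference of 0.16 ± 0.111 (SE, limma, adjusted p = 0.586) had an interval from -0.13 to 0.44. Ppp3cc, the gamma catalytic subunit, best known from testis, read 8.78, 9.20 and 9.09 on conditional arrays, against 8.55 and 9.67 in controls. Here the order of the controls was the opposite of Ppp3ca, with control replicate 2 the highest array. The mean difference, -0.08 ± 0.357 (SE, limma, adjusted p = 0.947), was made of 0.48 for control replicate 1 and -0.64 for control replicate 2 taken singly.

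The calcineurin-regulated NFAT factors among the members, Nfatc1, Nfatc2 and Nfatc3, all read lower in control replicate 1 than on any other array. Nfatc2, the NFAT1 factor of resting and activated T cells, read 10.04, 10.05 and 10.14 in conditional cells, against 8.05 in control replicate 1 and 9.90 in control replicate 2. The 3 conditional values lay within 0.11 of each other and just above control replicate 2. The difference of 1.11 ± 0.540 (SE, limma, adjusted p = 0.436) was a fold of 2.15 with a log2 interval from -0.27 to 2.48. Against control replicate 2 alone it was 0.18, so nearly all of the difference came with control replicate 1. The T cell identity list was also lowest on that array, and its part in the Nfatc2 level was not tested.

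Nfatc3, the NFAT4 factor prominent in thymocytes, read 11.64, 11.68 and 11.78 in conditional cells, against 10.62 and 11.35 in control replicates 1 and 2. Every conditional array was above both controls. The difference of 0.72 ± 0.234 (SE, limma, adjusted p = 0.274) was 1.64-fold, with an interval from 0.12 to 1.31. Taken singly, control replicate 1 gave 1.08 and control replicate 2 gave 0.35.

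Nfatc1, the NFAT2 factor that is induced on activation through an inducible promoter, read 9.83, 9.83 and 9.84 in conditional cells, against 9.29 and 10.39 in control replicates 1 and 2. The conditional arrays spanned 0.02, the narrowest range of the 10 genes, midway between controls that were 1.10 apart. The difference was therefore -0.003 ± 0.329 (SE, limma, adjusted p = 0.998). Against control replicate 1 alone it was 0.55 (adjusted p = 0.0200, limma), and against control replicate 2 alone -0.55 (adjusted p = 0.0560, limma), with the lone control assumed to vary like the conditional arrays. Control replicate 2, whose T cell identity level was nearest to the conditional arrays, thus lay above them for Nfatc1 and below them for Nfatc2 and Nfatc3, with none past the threshold.

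Nfat5, the tonicity factor, read 10.71, 10.74 and 10.60 in conditional cells, against 10.82 and 10.45 in controls. Unlike Nfatc1, Nfatc2 and Nfatc3 it was highest in control replicate 1. The difference was 0.04 ± 0.149 (SE, limma, adjusted p = 0.935; interval -0.34 to 0.42), and its sign turned to -0.02 after a second quantile normalisation or median centring.

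**Figure D2:**
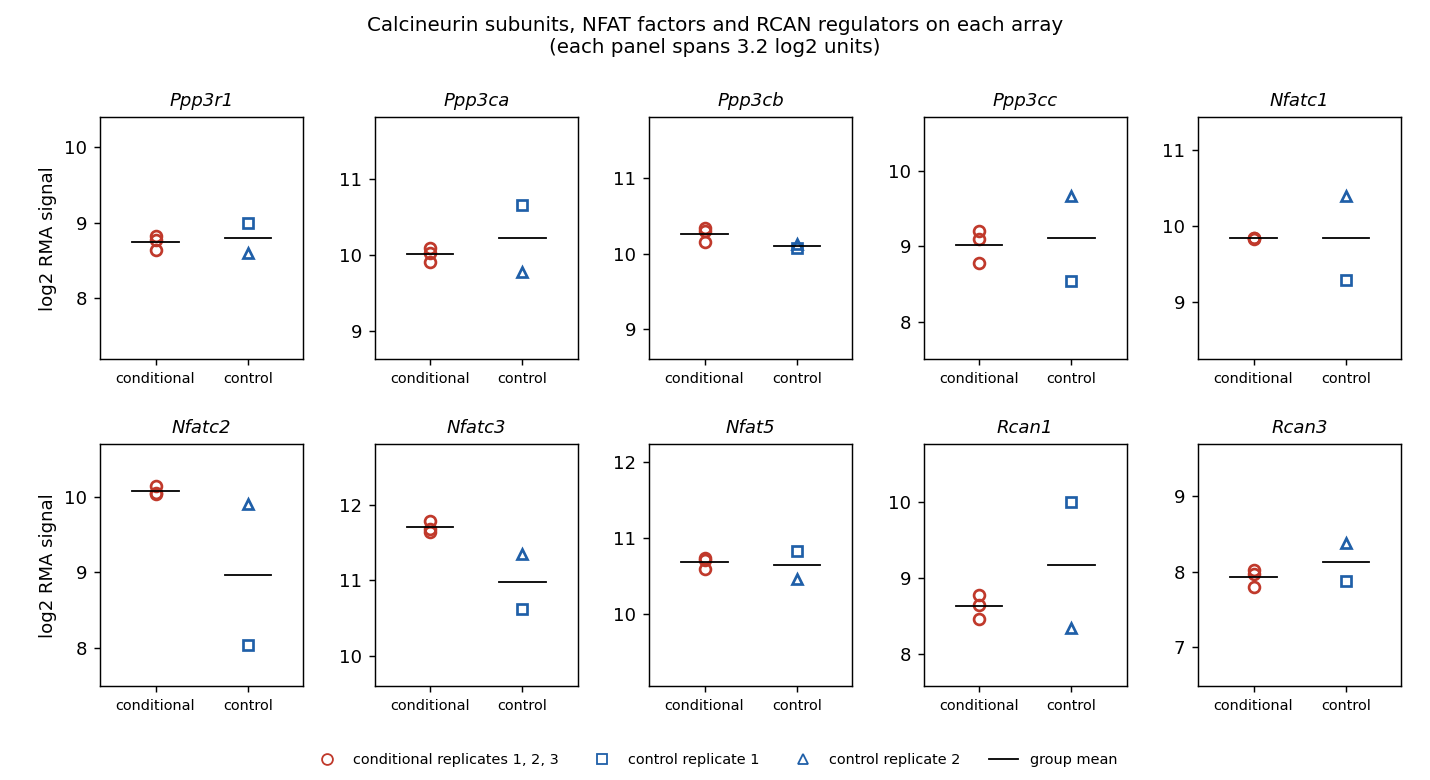
Log2 RMA signal (vertical axis) of the 10 genes on each array, with the 3 conditional arrays (circles) left of control replicates 1 (square) and 2 (triangle) and group means as lines, every panel spanning 3.2 log2 units. The conditional arrays cluster tightly, while the controls are up to 1.85 apart, as for Nfatc2.

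Rcan1, the NFAT-induced inhibitor whose promoters are printed above, read 8.78, 8.64 and 8.46 in conditional cells, against 10.001 in control replicate 1 and 8.34 in control replicate 2. All conditional values lay between the controls and close to control replicate 2. The difference was -0.54 ± 0.494 (SE, limma, adjusted p = 0.691; interval -1.80 to 0.72). Control replicate 1 gave -1.37 and control replicate 2 gave 0.29, so the direction of this readout turned with the control. Rcan1 is also expressed outside T cells, and control replicate 1 had the highest epithelial and stromal marker means, whose part in its Rcan1 level was not tested.

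Rcan3, the RCAN family member known from lymphocytes, read 7.97, 7.79 and 8.02 in conditional cells, against 7.87 and 8.38 in control replicates 1 and 2. Control replicate 2 was the highest array, and control replicate 1 lay within the conditional range. The difference was -0.20 ± 0.186 (SE, limma, adjusted p = 0.701), and it was -0.45 against control replicate 2 alone.

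The spread of the 10 genes was larger between the controls than among the conditional arrays. The gap between the controls exceeded the range of the 3 conditional arrays in 9 of 10 genes, all but Ppp3cb, and in 59.3% of all genes. The controls were more than 1 apart on the log2 scale for 4 of 10, Ppp3cc, Nfatc1, Nfatc2 and Rcan1, and for 13.3% of all genes. By the position of control replicate 1 the genes fell into those it read lowest (Ppp3cb, Ppp3cc, Nfatc1, Nfatc2 and Nfatc3) and those it read highest (Ppp3r1, Ppp3ca, Nfat5 and Rcan1), with Rcan3 in neither.

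Set against control replicate 1 alone, 5 of 10 genes passed the threshold in limma, with Nfatc1, Nfatc2 and Nfatc3 higher and Ppp3ca and Rcan1 lower in conditional cells. In that comparison 27.5% of all genes passed. Against control replicate 2 alone 0 of 10 passed, with 4 at an unadjusted p of 0.05 (Ppp3cc, Nfatc1, Nfatc3 and Rcan3). Over all genes 6.1% passed and 20.3% reached that unadjusted p. Differences against control replicate 2 ran from -0.64 for Ppp3cc to 0.35 for Nfatc3, and all 3 conditional arrays lay above control replicate 2 in 7 genes and below it in 3. Over all genes the same positions held for 28.2% and 31.2%. With the mean of the T cell identity list as a covariate, an alternative chosen after seeing the data, 0 of 10 passed beside 7.72% of all genes. The differences were close to those against control replicate 2: -0.48 for Nfatc1 (limma, adjusted p = 0.0609), -0.58 for Ppp3cc, 0.30 for Nfatc2, 0.40 for Nfatc3 and 0.18 for Rcan1. That list mean was 8.55 in control replicate 1 and 11.07 to 11.36 on the other arrays. The covariate fit thus nearly amounts to leaving out control replicate 1, and this closeness is built in.

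**Figure D3:**
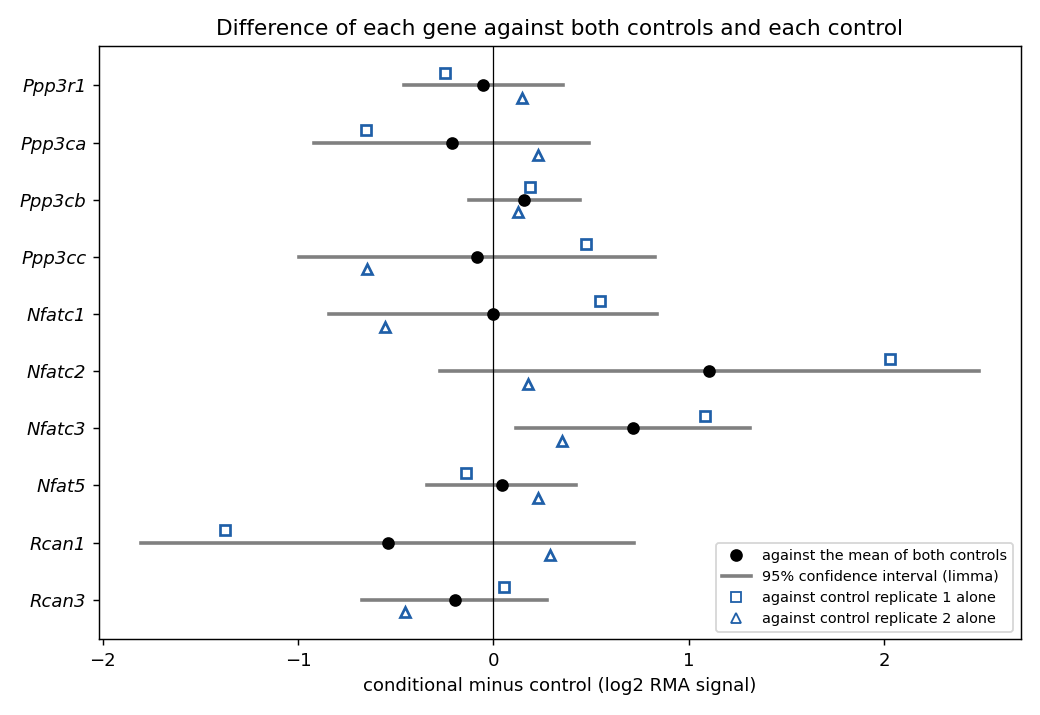
Difference of conditional minus control (horizontal axis, log2 RMA signal) for the 10 genes, against the mean of both controls with its 95% confidence interval from limma (black point, grey line), control replicate 1 alone (square) and control replicate 2 alone (triangle). Ppp3cb, Nfatc2 and Nfatc3 stay above 0 against either control, and the other 7 lie on opposite sides of 0.

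The family genes outside the group were Ppp3r2, Rcan2 and Nfatc4. Ppp3r2, the testis form of calcineurin B, read 4.21, 4.17 and 4.38 in conditional cells, against 4.13 and 4.18 in controls. Its mean was at the 3.23 percentile of all genes, a rank across different probe sets that does not give the level of its RNA. The difference of this paralogue of the floxed gene was 0.10 (limma, adjusted p = 0.769), with an interval from -0.20 to 0.40. Rcan2 read 6.54 to 7.27 in conditional cells, against 9.24 and 7.03 in control replicates 1 and 2. Like Rcan1 it was highest in control replicate 1, 2.21 above control replicate 2. Nfatc4, an NFAT factor chiefly of other tissues, read 6.68 to 7.09 in conditional cells, against 7.79 and 7.01 in controls. Neither passed, with differences of -1.22 (limma, adjusted p = 0.482) and -0.54 (limma, adjusted p = 0.443).

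By pattern over the 5 arrays, the genes nearest to Ppp3r1 were Ganab, Tmed10, Stard7, E130311K13Rik and Prrc1, at a root mean square distance of 0.015 to 0.0219 after each gene was centred on its mean. Such closeness was common, with 661 genes within 0.1 of Ppp3r1, Nfat5 among them at 0.0939. Nfatc2 was the member farthest from it, at 0.912.

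The rest of the pathway was read from 5 lists holding 83 genes, of which 78 were measured and 2 passed the threshold, Tnfrsf9 and Cblb, both higher in conditional cells, where 0.416% of all genes passed. The median difference over the 78 genes was 0.12. Against single controls it was 0.27 for control replicate 1 and -0.002 for control replicate 2. Upstream of calcineurin, calcium entry and receptor-proximal genes gave 0 of 13 past the threshold in limma and a median of 0.07. An unadjusted p of 0.05 was reached by 2 of them, beside 14.5% of all genes. The list includes T cell genes such as Zap70 and Lat, and its median turned with the control, at 0.27 for control replicate 1 and -0.52 for control replicate 2.

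Atp2a3, the SERCA3 pump that returns calcium to the endoplasmic reticulum, read 9.26, 9.44 and 9.38 in conditional cells, against 9.82 and 10.15 in controls. All conditional values lay below both controls, at a difference of -0.62 ± 0.145 (SE, limma, adjusted p = 0.165). Trpm4, a calcium-activated cation channel that limits calcium entry, was also below both, at 7.59 to 7.70 in conditional cells against 8.19 and 7.93 in controls (limma, adjusted p = 0.241). Orai1, the pore of the store-operated calcium channel, read 9.97 to 10.08 in conditional cells against 8.56 and 9.77 in controls, with a difference of 0.85 (limma, adjusted p = 0.377) that was 0.25 against control replicate 2 alone. Itpr3, a calcium release channel, read 9.29 to 9.40 in conditional cells against 9.48 and 10.15 in controls (limma, adjusted p = 0.418).

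Calcineurin partners and inhibitors gave 0 of 13 past the threshold in limma, with a median of -0.005. Only 1 reached an unadjusted p of 0.05, beside 14.5% of all genes. Chp1, a calcineurin B homologue that can inhibit the phosphatase, read 11.48, 11.51 and 11.60 in conditional cells, against 11.26 and 10.72 in controls. Every conditional array was above both, at a difference of 0.54 ± 0.186 (SE, limma, adjusted p = 0.294). Akap5, an anchoring protein that docks calcineurin, lay above both controls as well, at 7.24 to 7.34 in conditional cells against 6.91 and 7.17 in controls (limma, adjusted p = 0.425). Calm3, a calmodulin gene, lay below both, at 9.76 to 9.81 in conditional cells against 10.30 and 9.97 in controls (limma, adjusted p = 0.356). Sla2, in this list too, is an adaptor that dampens receptor signalling rather than calcineurin itself. It was at 9.69 to 9.81 in conditional cells against 7.52 and 9.58 in controls (limma, adjusted p = 0.450). Against control replicate 2 alone the gap was 0.15.

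NFAT kinases and transport factors gave 0 of 14 past the threshold in limma, and none had controls more than 1 apart. Only 1 reached an unadjusted p of 0.05, beside 14.5% of all genes. Mapk14, the p38 alpha kinase that can phosphorylate NFAT, read 10.40, 10.51 and 10.73 in conditional cells, against 9.85 and 10.04 in controls. Conditional arrays were above both controls, at 0.60 ± 0.147 (SE, limma, adjusted p = 0.178). Xpo1, the exportin that carries NFAT out of the nucleus, lay below both, at 8.88 to 9.27 in conditional cells against 9.52 and 9.53 in controls (limma, adjusted p = 0.357). Gsk3a, an NFAT export kinase, differed by 0.19 (limma, adjusted p = 0.465).

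Downstream, 1 of 22 activation targets and 1 of 16 measured anergy and exhaustion targets passed, beside the same 0.416% of all genes. The lists were chosen with earlier results of these data known, so setting them beside all genes is a description only. Tnfrsf9, the costimulatory receptor 4-1BB, read 12.37, 12.29 and 12.10 in conditional cells, against 10.05 and 10.37 in control replicates 1 and 2. It rose by 2.04 ± 0.155 (SE, limma, adjusted p = 0.0294) and was higher against either control alone, by 2.20 and 1.88. Cblb, a ubiquitin ligase that restrains T cell activation and is induced through NFAT in anergy, read 12.12, 12.10 and 12.20 in conditional cells, against 11.15 and 11.21 in controls. It rose by 0.96 ± 0.101 (SE, limma, adjusted p = 0.0497), at the edge of the threshold. Both lost the threshold when any 1 conditional array was left out, as did all genes in those fits.

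The other activation targets did not pass. Of the 22, 10 reached an unadjusted p of 0.05 in limma, beside 14.5% of all genes. In 6 every conditional value lay above both controls and in 5 every value lay below, beside 17.4% and 13.1% of all genes. Their median difference was 0.24, and it turned with the control, at 0.79 for control replicate 1 and -0.29 for control replicate 2. Egr2, an early growth response factor induced through NFAT, read 8.51, 8.45 and 8.32 in conditional cells, against 9.79 and 9.50 in controls, at -1.22 ± 0.140 (SE, limma, adjusted p = 0.0546). Nr4a1, an orphan nuclear receptor induced by receptor signalling, read 11.68, 11.54 and 11.24 in conditional cells, against 12.17 and 12.69 in controls (limma, adjusted p = 0.166). Both lay below both controls on every conditional array. On the same arrays, 14 of 16 measured dissociation and stress genes, a list that mixes immediate-early and heat shock genes, had all conditional values below both controls, against 13.1% of all genes. The exceptions were the immediate-early genes Junb and Ier3. That list averaged 10.39 to 10.61 on conditional arrays against 11.41 and 11.61 in controls, and its part in the values of Egr2 and Nr4a1 was not tested. Csf2, the GM-CSF cytokine gene, went the other way, at 7.57, 7.37 and 7.58 in conditional cells against 6.46 and 6.64 in controls (limma, adjusted p = 0.0697).

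Among anergy and exhaustion targets 7 of 16 had every conditional value above both controls and 0 had every value below, beside 17.4% and 13.1% of all genes. Their median difference was 0.46, and 0.25 against control replicate 2 alone. Some of the 16 turned with the control, so the count of 0 below rests on control replicate 1 as well. Lag3, Dgkz and Ikzf1 were at -1.18, -1.14 and -0.93 against control replicate 2 alone. Against control replicate 1 alone they were at 0.39, 0.58 and 1.72. Havcr2, the inhibitory receptor TIM-3, read 9.50, 9.58 and 9.29 in conditional cells, against 7.38 and 8.004 in controls (1.76 ± 0.219, SE, limma, adjusted p = 0.0617). Tigit, another inhibitory receptor, read 11.97, 11.97 and 12.10 in conditional cells, against 9.97 and 10.94 in controls (limma, adjusted p = 0.121). Bcl2l11, the pro-apoptotic protein BIM, read 10.28, 10.41 and 10.43 in conditional cells, against 9.77 and 9.82 in controls (limma, adjusted p = 0.115). The mean of the macrophage and dendritic cell markers was higher on the same arrays. Of these 12 markers, 7 lay above both controls on every conditional array, and 1, Mertk, had a mean difference below 0. Havcr2 is also made by myeloid cells, and the part of those cells in its value was not tested.

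**Figure D4:**
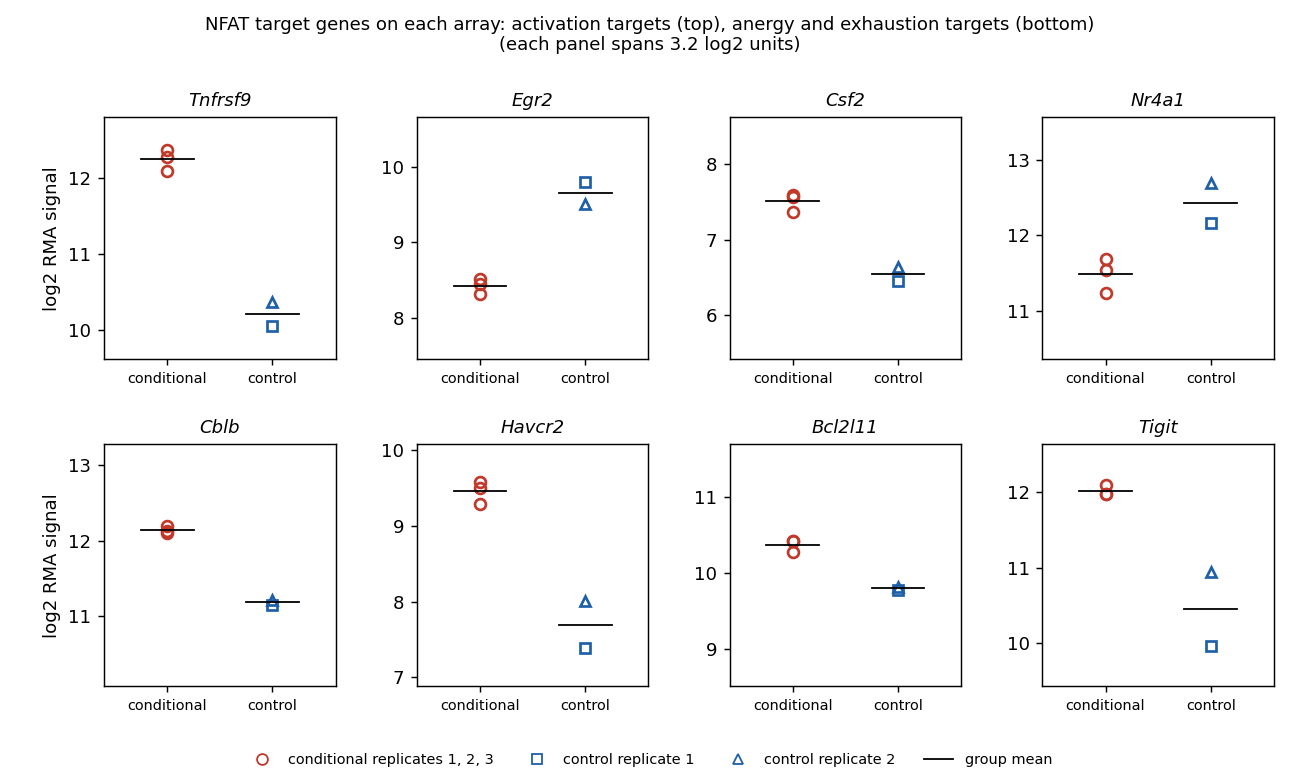
Log2 RMA signal (vertical axis) of the 4 activation targets (top) and 4 anergy and exhaustion targets (bottom) with the smallest p in their lists, with conditional arrays (circles) left of control replicates 1 (square) and 2 (triangle), group means as lines and 3.2 log2 units per panel. The 8 were picked by p from this same comparison, and groups are apart in all of them, beside 30.5% of all genes. Egr2 and Nr4a1 are lower and the other 6 higher in conditional cells, and only Tnfrsf9 and Cblb passed the threshold.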

How the data were processed

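The authors deposited log2 signals per probe set; the submitters' processing notes name RMA and oligo. RMA corrects background, normalises arrays together and summarises probes, which removes global shifts and compresses differences of dim genes. No tool version or build is given in the sources used. RNA had an integrity number of at least 9.2, per the labels' protocols. Array medians were 7.12 to 7.23. With arrays there is no read depth; precision is limited by how many there are.

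Of 34760 probe sets, 21640 had 1 symbol in the platform annotation, 1321 several, and 11799 are unnamed here. No symbol needed updating, and where a gene had several probe sets the one with the highest mean stood for it, giving 19937 genes. Genotype labels set the groups, and titles gave replicate numbers. The groups were compared with limma 3.58.1 in R 4.3.3 (lmFit, eBayes, no covariate, 3 residual degrees of freedom plus a prior of 2.1), with Benjamini-Hochberg adjustment over all genes. The members and lists were chosen with earlier results of these data known. Named genes were the 10 members, 3 family genes and up to 4 genes per pathway list by the smallest p. A few other genes of the lists were named as examples. On simulated data with 200 of 19937 genes changed, 22.6% of genes changed by 1 were recovered, 78.7% at 2, 89.8% at 3 and 94.6% at 4. False calls were 5.02% at every size, and whether that is a share of calls or of unchanged genes is not stated. The threshold for recovery and the spread of the simulated controls are not stated either. These shares may thus not hold for the real controls, which were more than 1 apart for 13.3% of all genes. Promoter windows are from RefSeq (GRCm38.p6); 7 of 10 members had one that was used. Alternatives were each array left out, the replicate number as a block, 2 other scalings, a filter on dim genes (mean over 6.13), another variance prior, array weights, the mean over probe sets and, added after the data were seen, a T cell identity covariate.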

Additional observations from a re-analysis of the deposited data

How the results depend on the processing

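The count of the 10 genes past the threshold stayed at 0 under every alternative but the fit without control replicate 2, and leaving out 1 array in turn gave 0 to 5. The number with groups fully apart was 3 when any 1 conditional array was left out, and 2 with median centring. Against a lone control, apart means only that all 3 conditional arrays lie on the same side of it. That held for 10 of 10 genes against control replicate 2, beside 59.4% of all genes. Against control replicate 1 it held for 9, beside 44.7% of all genes above it and 30.6% below it. For all genes, the count of 83 became 0 to 5474 when 1 array was left out (1217 without control replicate 1, 5474 without control replicate 2), 13 with array weights and 1540 with the T cell identity covariate. The 2 pathway genes became 0 to 41 when 1 array was left out (23 without control replicate 1, 41 without control replicate 2), 0 with array weights, 24 with the covariate, and 1 each with the replicate block, median centring, the lower quartile filter and the mean of all probe sets. In those 4 fits the gene kept was Tnfrsf9.

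Directions that turned when 1 array was left out had ranges of -0.25 to 0.15 for Ppp3r1, -0.65 to 0.23 for Ppp3ca, -0.64 to 0.48 for Ppp3cc, -0.55 to 0.55 for Nfatc1, -0.14 to 0.23 for Nfat5, -1.37 to 0.29 for Rcan1 and -0.45 to 0.0534 for Rcan3. Ppp3cb (0.12 to 0.21), Nfatc2 (0.18 to 2.03) and Nfatc3 (0.35 to 1.08) kept theirs. With the covariate, Ppp3r1, Ppp3ca and Rcan1 turned to 0.11, 0.16 and 0.18. Nfat5 turned to -0.0199 with a second quantile normalisation and -0.0204 with median centring, and Nfatc1 to 0.0017 with array weights. The cause was not tested.

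Whether the replicate numbers pair the arrays could not be told. Deviations from the group means correlated at 0.40 for number 1 and at -0.29 for number 2. With only 2 controls, their deviations from their mean are mirror images, so these correlations cannot decide it. The block changed none of the 10 calls. With it 69 genes passed, and its differences repeat those without conditional replicate 3.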
